A study of Homo sapiens with 6 samples.

Results

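Long intergenic non-coding RNAs (lincRNAs) were followed in PAR-CLIP data from HEK293 cells, as clusters of reads that the authors labelled lincRNA. The tables of clusters of 5 immunoprecipitated libraries held 32278 clusters with that label among 1717084 clusters. MALAT1 and NEAT1 were kept apart, which left 31807 lincRNA clusters. G20 held 684 of them, G35 held 1493 and G45 held 1369, while HuR replicates 1 and 2 held 1000 and 27261. In Total, whose table carries no such label, the 1351 clusters that overlapped lincRNA clusters on the same strand were used.

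HEK293 is an established human embryonic kidney line, and here it stably carried a doxycycline-inducible FLAG-tagged protein. In PAR-CLIP, cells take up the nucleoside analog 4SU, long-wave UV light crosslinks it to bound protein, and the crosslink is read as a T-to-C conversion. Lysates were digested with RNase T1 and precipitated through the FLAG tag. The background libraries came from cells expressing FLAG-GFP, with RNA taken from gel slices at about 20 kDa (G20), 35 kDa (G35) and 45 kDa (G45). The HuR libraries were 2 replicates from cells expressing FLAG-HuR. Total came from lysate of cells likewise given 4SU and UV light, without immunoprecipitation. It was freed of protein by proteinase K, depleted of ribosomal RNA and only then digested with RNase T1. No slice has a replicate, nor has Total. The slices are different gel regions and not replicates of each other, so the spread between them includes differences between gel regions. The labels do not say whether the HuR replicates came from separate cultures, so tests measure only the spread between these libraries. All of them pool many cells, so fewer cells with a transcript and less of it per cell cannot be told apart.

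lincRNAs are transcribed from their own genes between protein-coding genes, and most are spliced and kept at low levels. Several stay in the nucleus, among them XIST, which coats the inactive X chromosome, and MALAT1 and NEAT1, which belong to nuclear speckles and paraspeckles. HuR (ELAVL1) is an RNA-binding protein of nucleus and cytoplasm that prefers U-rich and AU-rich RNA and is best known for binding 3' UTRs and introns of pre-mRNA.

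The sequences below show what lincRNA clusters looked like, with every T in capitals because T is the base that 4SU replaces and that converts. Of the clusters of at most 30 nt in HuR replicate 2, the first 5 had the most reads in their gene among those also found as a cluster in HuR replicate 1 and lacking any read in the 3 slices. They lie at chrX:73044706-73044725 (minus strand, exon of XIST), chrX:73190213-73190235 (plus, intron of JPX), chrX:73468411-73468436 (minus, intron of FTX), chr13:50653048-50653070 (minus, intron of DLEU2) and chr15:41592139-41592156 (plus, exon of OIP5-AS1). The last sequences are 2 intronic clusters with many reads in each slice, though not the most. They lie at chr11:93996032-93996055 (plus, ENSG00000250519) and chr21:41100827-41100846 (plus, ENSG00000231713). All positions are of hg19 (GRCh37), places are from GENCODE, and letters are as deposited.
XIST: TTaTccTcTaTacTaTTcag
JPX: aacTTcaTTTTgggggTgcTgTg
FTX: TTTacTTaTaTTTTTTaaacaTaTag
DLEU2: TTTgTaTTcTcaTTcaaaTTacg
OIP5-AS1: TaaTcTaccaacTTccTg
ENSG00000250519: ggagaaTgaTgcTgaaggaacTTc
ENSG00000231713: gaagggaaacTgagTcTgaT
T made up 45.0%, 39.1%, 53.8%, 47.8% and 33.3% of the bases of the 5 HuR sequences in the order shown, against 20.8% and 20.0% in the 2 slice sequences. Of other sites with clusters in all 5 libraries, some were richer in T, with 9 T in 18 nt at the one in ENSG00000235726 and 9 in 20 nt at the one in LINC01208. The sites in LINC01320 and RARB, with many reads in the slices, had 38.9% and 34.8% T. HuR replicate 2 also held 4671 and 3151 reads at the 2 slice sequences, in the order shown. The sequences are thus examples and not a comparison of libraries. The XIST cluster held 31 and 115 reads in HuR replicates 1 and 2, and the JPX cluster 70 and 289. The FTX cluster held 5 and 213, the DLEU2 cluster 31 and 320, and the OIP5-AS1 cluster 8 and 27.

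The lincRNA label took up about the same share of clusters in every library. It covered 1.76% of G20 clusters (95% Wilson interval 1.64 to 1.90), 2.19% of G35 clusters (2.09 to 2.31) and 2.37% of G45 clusters (2.25 to 2.50). In HuR replicate 1 it covered 2.54% (2.39 to 2.70) and in HuR replicate 2 1.80% (1.78 to 1.82). HuR thus had 2.17% ± 0.523 (SD, n = 2) against 2.11% ± 0.314 (n = 3 gel regions) in the slices. The difference was within the spread (two-sided exact permutation test, p = 0.8). Reads were not tagged as single molecules, so these intervals cover counting error only.

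Shares of reads differed more. lincRNA clusters held 0.126%, 1.30% and 1.47% of the cluster reads of G20, G35 and G45, compared to 2.16% and 1.85% in HuR replicates 1 and 2. Both HuR libraries lay above the 3 slices, and G20 lay far below the other slices. The exact permutation test of 2 against 3 libraries gave p = 0.2, the smallest it allows. With the 10 clusters with the most reads left out of each library, the G20 share was 0.499%, compared to 1.63% in G35, 1.91% in G45 and 2.22% ± 0.451 (SD, n = 2) in HuR.

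**Figure D1:**
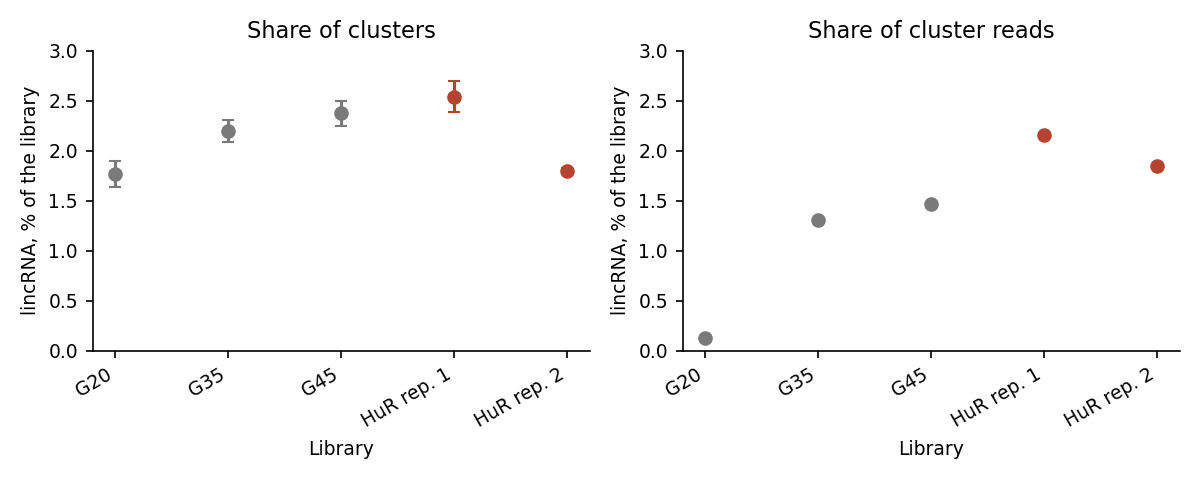
Share of clusters (left) and of cluster reads (right) with the lincRNA label in each library, in percent, without MALAT1 and NEAT1. Bars are 95% Wilson intervals, hidden by the points where narrow. The shares of clusters lie between 1.76% and 2.54%, while the share of reads in G20 is 0.126%.

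The label fitted the annotation in most cases, but few clusters were in exons. By their midpoint, 25.3% of G20, 13.5% of G35 and 11.5% of G45 lincRNA clusters lay in an exon of a GENCODE lncRNA gene. Introns of such genes held 65.8%, 76.2% and 78.2%. In HuR replicate 1 the exon share was 38.7% (95% Wilson interval 35.7 to 41.8) and in HuR replicate 2 it was 10.1% (9.76 to 10.5), so the HuR replicates stood on either side of the slices. A further 4.68% to 10.9% of the clusters of a library lay in genes that GENCODE now calls protein-coding, and 0.300% to 3.58% in no gene of that strand.

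Slice lincRNA clusters were short. Their median length was 18 nt in G20 and G45 and 19 nt in G35, compared to 22 nt and 23 nt in HuR replicates 1 and 2. The 10 clusters with the most reads held 45.4%, 43.0% and 43.2% of the lincRNA reads of G20, G35 and G45. In HuR replicate 1 they held 56.3%, but only 7.70% in HuR replicate 2. The HuR tables also differ in their making, since every lincRNA cluster of HuR replicate 1 had at least 2 conversion locations, whereas 47.2% of those of HuR replicate 2 had.

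Clusters fell in 2347 genes in all, of which 420 had one in G20, 814 in G35, 776 in G45, 173 in HuR replicate 1 and 2125 in HuR replicate 2. In the slices most genes had a single cluster, in G20 322 of its 420 genes. Merged over the 5 libraries, the clusters formed 29132 distinct sites. Of these, 25777 sites (88.5%) had a cluster in HuR replicate 2 alone, 605 had one in both HuR replicates and no slice, and 58 had one in all 5 libraries.

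XIST, which was singled out after its values were seen, held more lincRNA reads than any other gene in both HuR replicates. Its clusters numbered 83, 74 and 53 in the slices G20, G35 and G45, compared to 331 and 432 in HuR replicates 1 and 2. They held 18.4% of the lincRNA reads of HuR replicate 1 and 14.0% of those of HuR replicate 2. As reads in groups (sites with any read) scaled by 1000000 over the reads of the library (RPM), XIST had 61.1 in G20, 184 in G35, 148 in G45, 1005 in HuR replicate 1, 1934 in HuR replicate 2 and 1257 in Total. The HuR libraries and Total were high and the slices low, without overlap. XIST spans chrX:73040484-73072558 on the minus strand, and most of its clusters were exonic, 85.2% and 80.1% in HuR replicates 1 and 2.

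JPX and FTX, neighbours of XIST in the X-inactivation center that are transcribed from opposite strands, were also lowest in the slices and highest in HuR replicate 2. JPX (chrX:73164017-73290243, plus strand) had an RPM of 4.97 in G20, 23.6 in G35, 26.1 in G45, 203 in HuR replicate 1, 558 in HuR replicate 2 and 119 in Total. FTX (chrX:73160270-73513409, minus strand) had 10.1, 46.1, 38.5, 284, 830 and 137. Both HuR replicates were above Total, and Total was above every slice, whereas in XIST Total lay above HuR replicate 1. Unlike in XIST, most of their HuR clusters were intronic, since exons held 17.8% of JPX clusters and 17.0% of FTX clusters in HuR replicate 2.

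The miRNA hosts DLEU2 and MIR924HG had the order of JPX and FTX, from the slices through Total to HuR. DLEU2, the host of miR-15a and miR-16-1 (chr13:50530806-50699856, minus strand), had an RPM of 9.42, 36.8 and 38.2 in the 3 slices, against 245 and 744 in the HuR replicates and 132 in Total. MIR924HG (chr18:36786881-37380286, minus strand) had 8.15, 44.3 and 42.6 in the slices, 263 and 672 in HuR and 141 in Total. In HuR replicate 2, DLEU2 held 512 clusters and MIR924HG 1287, of which 6.64% and 2.02% were exonic. MIR99AHG, the host of miR-99a and let-7c, had 582 clusters in HuR replicate 2 and none in HuR replicate 1. Its RPM of 5.49, 32.0 and 39.9 in the slices, 164 and 293 in HuR and 31.8 in Total placed Total below G35 and G45.

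Set against gene length, XIST was denser than these genes. In HuR replicate 2 it had 13.5 clusters per kb of its span, compared to 3.07 in JPX, 3.03 in DLEU2, 2.17 in MIR924HG and 0.767 in FTX. In G35 the density was 2.31 clusters per kb in XIST and at most 0.0473 in the other 4. OIP5-AS1, a cytoplasmic lincRNA known as a HuR partner, had 2.29 clusters per kb in HuR replicate 2 and no cluster in G20 or G45. Its RPM was 1.58, 5.33 and 5.97 in the 3 slices, against 22.2 and 70.9 in HuR replicates 1 and 2 and 21.0 in Total.

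MALAT1 and NEAT1 were reported apart. MALAT1 had 37 clusters in G20, 30 in G35, 19 in G45, 74 in HuR replicate 1 and 79 in HuR replicate 2. Its RPM was 38.1, 118 and 105 in G20, G35 and G45, compared to 298 and 1516 in HuR and 211 in Total. NEAT1 had 12, 10 and 7 clusters in the slices and 22 and 181 in HuR, with an RPM of 14.3, 24.1 and 22.02 against 63.3 and 222. Both HuR replicates were above the slices for both genes. NEAT1 in Total, at 58.9, lay just below HuR replicate 1.

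The genes that led the slices had a different form. CIBAR1-DT (chr8:94225531-94712661, minus strand), a divergent transcript, led all 3 slices through 1 intronic cluster of 19 nt. That cluster held 3057 reads in G20, 5183 in G35, 8161 in G45, 2135 in HuR replicate 1, 4817 in HuR replicate 2 and 206 in Total. The RPM of the gene was 86.0, 887 and 1197 in G20, G35 and G45, against 337 and 186 in HuR and 9.88 in Total. ENSG00000250519 held 2524, 4039 and 4434 reads in the slices in 1 cluster, and the same site held 311 and 4671 in HuR replicates 1 and 2 and 11 in Total. ENSG00000231713 held 1785, 4364 and 4021 reads in the slices, 431 and 3151 in HuR gene-wide, and 2 in Total. LINC01320, next in G45, held 4769 reads there, 4584 of them in 1 intronic site. MIR663AHG, among the leading genes of G20, held 2899 reads in 5 clusters there and 40 and 124 in G35 and G45.

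After XIST, HuR replicate 1 was also led by single intronic clusters. ADAMTS9-AS2 held 8164 lincRNA reads there, of which 8146 lay in 1 site, and ENSG00000224400 held 5744 in 1 cluster. COMETT held 3176 reads in 1 cluster. In HuR replicate 2 the same genes held 621, 629 and 58 reads, although that library is the deeper of the pair. In Total groups they held 93, 42 and 23 reads.

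**Figure D2:**
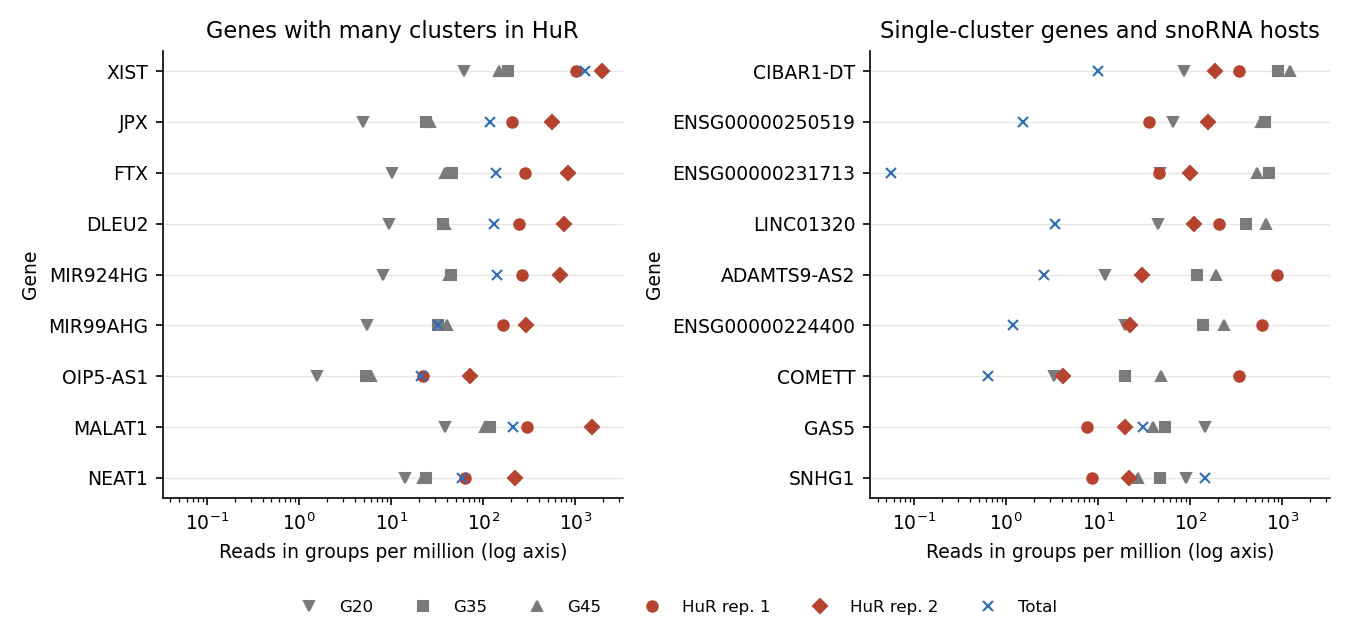
RPM in groups (log axis) for 18 lincRNA genes, 1 marker per library, with slices in grey, HuR in red and Total in blue. Genes with many HuR clusters (left) run from the slices through Total to HuR in most cases, whereas genes led by 1 cluster (right, upper 7 rows) have Total lowest and GAS5 and SNHG1 have HuR lowest.

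Per gene, HuR was compared with the slices on reads summed over groups, with edgeR's quasi-likelihood test over 19174 genes. Of the 2347 genes holding lincRNA clusters, 1490 passed the filter on low counts. Of these, 62 genes passed at an adjusted p of 0.05, 57 lower and 5 higher in HuR. Over all genes tested, 4.79% were called in either direction, 4.03% as lower and 0.761% as higher, so the count for lincRNA genes was near the background. The genes were chosen by their clusters, most of which are of HuR replicate 2, and this choice can bear on the filter and the direction. The median log2 fold change of HuR over the slices was -0.36 for lincRNA genes, beside -0.02 for all genes and -0.28 for all GENCODE lncRNA genes tested. The 962 tested genes with a lincRNA cluster in a slice held 49 of the 57 lower calls and 1 higher call, with a median of -0.66. The 528 with such clusters in HuR only held 8 lower and 4 higher calls, with a median of 0.19. The calls and medians thus depend on which libraries brought a gene in. Normalization factors were 0.180 for G20, 1.08 and 1.02 for G35 and G45, and 2.32 and 2.18 for HuR replicates 1 and 2, so these fold changes are not those of RPM.

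None of XIST, JPX, FTX, DLEU2 and MIR924HG, the genes with many HuR clusters described above, passed this edgeR test of all 5 libraries. The log2 fold change was 1.41 ± 0.93 (SE) for XIST, with an adjusted p (edgeR) of 0.35. It was 2.48 for JPX (adjusted p by edgeR 0.0633), 2.18 for FTX (0.107), 2.15 for DLEU2 (0.107) and 2.003 for MIR924HG (0.127). The call of 4 of them depended on the test. JPX, DLEU2 and MIR924HG had been chosen for their reads in lincRNA clusters of HuR replicate 2, and FTX after its values were seen. No p-value given here for these genes is independent of that choice. By the DESeq2 Wald test the adjusted p was 0.00781 for JPX, 0.0241 for FTX, 0.0284 for DLEU2 and 0.0387 for MIR924HG, and 0.173 for XIST. With edgeR but without HuR replicate 1 it was 0.0223, 0.0349, 0.034 and 0.0457 for the same 4 genes, and 0.29 for XIST. MALAT1 had 1.24 (0.395) and NEAT1 0.46 (0.751).

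Of the 5 genes called higher in HuR, 3 had most of their reads in HuR replicate 1. PRKG1-AS1 had 9, 8 and 13 reads in G20, G35 and G45, compared to 1116 and 106 in HuR replicates 1 and 2 (log2 fold change 4.25 ± 1.02, SE, edgeR adjusted p 0.0195). KIZ-AS1 had 3, 7 and 2 reads against 449 and 27, and LINC00343 13, 3 and 21 against 849 and 157. Without HuR replicate 1 the fold changes of PRKG1-AS1 and KIZ-AS1 were -0.087 and -0.79. The other two, ENSG00000283403 and ENSG00000286613, were high in HuR replicate 2. ENSG00000283403 had 49, 11 and 51 reads in the slices against 448 and 4162, and ENSG00000286613 had 0 in each slice against 15 and 185 (edgeR adjusted p 0.0417 and 0.0411).

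The 5 genes with the lowest fold change were ENSG00000226542, MIR663AHG, ENSG00000253585, ILVBL-AS1 and GAS5. MIR663AHG had an RPM of 145, 33.9 and 34.6 in G20, G35 and G45 against 2.62 and 6.42 in HuR (log2 fold change -7.15 ± 1.45, SE, edgeR adjusted p 0.0106), and Total was highest at 187. ILVBL-AS1 had 1.01, 44.6 and 59.3 in the slices against 0.315 and 3.89. ENSG00000226542 had 1, 21 and 146 reads in the slices against 0 and 1, and ENSG00000253585 24, 123 and 38 against 2 and 19. In RPM, the slices differed among themselves by more than 5 times in each of these 3 genes. Without G20, none of the 1411 lincRNA genes then tested was called by edgeR, with 429 at an unadjusted p under 0.05.

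GAS5 is one of 14 lincRNAs that host snoRNAs in their introns, all of which were tested. In this list GAS5, SNHG1, SNHG12 and SNHG7 were lower in HuR and none was higher, with a median log2 fold change of -1.62 beside -0.02 over all genes, of which 4.03% were called lower. Without G20 none of the list was called, with an edgeR adjusted p of 0.0584 for GAS5, 0.0587 for SNHG1 and 0.145 for SNHG12, whose log2 fold change was then -1.96. GAS5 had an RPM of 145, 53.5 and 39.0 in G20, G35 and G45 against 7.45 and 19.6 in HuR, and SNHG1 had 90.6, 46.2 and 26.7 against 8.61 and 21.6. These reads lay mostly outside lincRNA clusters, since GAS5 had 5602 reads in G20, of which 12 were in clusters with that label. Where an annotated exon of a host covers a hosted snoRNA, reads of the snoRNA were counted for the host. Their part in these values was not measured. By clusters, 7 of the hosts were seen in G20, 4 in G35, 2 in G45, 2 in HuR replicate 1 and 9 in HuR replicate 2. In all, 9 of the 14 hosts held a lincRNA cluster, and SNHG7 was not one of them.

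Of 7 miRNA hosts MIR22HG and MIR155HG were called lower in HuR and none was higher, with a median log2 fold change of -2.54. Over all genes 4.03% were called lower and the median was -0.02. Neither MIR22HG nor MIR155HG held a lincRNA cluster. The 3 hosts that held one had log2 fold changes of 2.15 (DLEU2), 1.35 (MIR99AHG) and -4.28 (MIR17HG), and edgeR called none of them. MIR17HG, the host of the oncogenic miR-17 cluster, was not called, with an RPM of 223, 3817 and 3194 in G20, G35 and G45 against 90.1 and 746 in HuR. As for GAS5, few reads of MIR17HG carried the lincRNA label, with 9 reads in 1 cluster of G35 and none in G20 or G45. Reads of a miRNA that lies in an exon of its host were likewise counted for the host. The RPM and fold changes of the miRNA hosts can thus include reads of the miRNAs, whose part was not measured. Of 7 nuclear or chromatin-associated lncRNAs, 6 held a lincRNA cluster. None of the 7 was called, and 5 had a fold change above 0, with a median of 1.09. Of the 5 HuR-associated lncRNAs, 2 could be tested, OIP5-AS1 at 1.41 and HOTAIR at -0.93, and neither was called. In RPM, HOTAIR had 0.673, 2.26 and 1.59 in G20, G35 and G45 against 3.04 and 3.27 in HuR. Both HuR replicates thus lay above the slices in RPM, unlike in the normalized fold change.

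HuR lincRNA clusters were set against the reads of the 3 slices. In HuR replicate 1, 498 of 1000 clusters (49.8%, 95% Wilson interval 46.7 to 52.9) overlapped a background group on the same strand, and they held 90.8% of lincRNA reads. In HuR replicate 2, 2791 of 27261 clusters (10.2%, 9.88 to 10.6) did, with 38.1% of reads. Of the clusters with 25 or more reads, 91.6% and 37.7% overlapped background. In both replicates the clusters with background thus held more than their share of reads.

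The share stood between those of other labels. In HuR replicate 1, 51.6% of 3' UTR, 25.6% of intron, 52.7% of intergenic and 72.6% of coding clusters overlapped background. In HuR replicate 2 the values were 24.1%, 8.17%, 10.8% and 40.8%. Introns were lowest and coding clusters highest in both replicates. Intergenic clusters lay just above 3' UTR clusters in HuR replicate 1 and well below them in HuR replicate 2. The lincRNA share was near that of 3' UTR clusters in HuR replicate 1 (49.8%) and near that of intergenic clusters in HuR replicate 2 (10.2%). Exonic lincRNA clusters overlapped background more often than the rest, 67.1% against 37.8% in HuR replicate 1 and 22.3% against 8.54% in HuR replicate 2. XIST held 282 of the 410 exonic clusters of HuR replicate 1 and 346 of the 3363 of HuR replicate 2. With XIST left out, a comparison added after the data were seen, the share was 39.1% of exonic clusters (95% Wilson interval 31.05 to 47.7) against 35.3% of the rest (31.4 to 39.4) in HuR replicate 1. In HuR replicate 2 it was 16.3% (15.03 to 17.7) against 8.38% (8.04 to 8.74). The intervals thus overlapped in HuR replicate 1 once XIST was left out, and did not in HuR replicate 2.

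**Figure D3:**
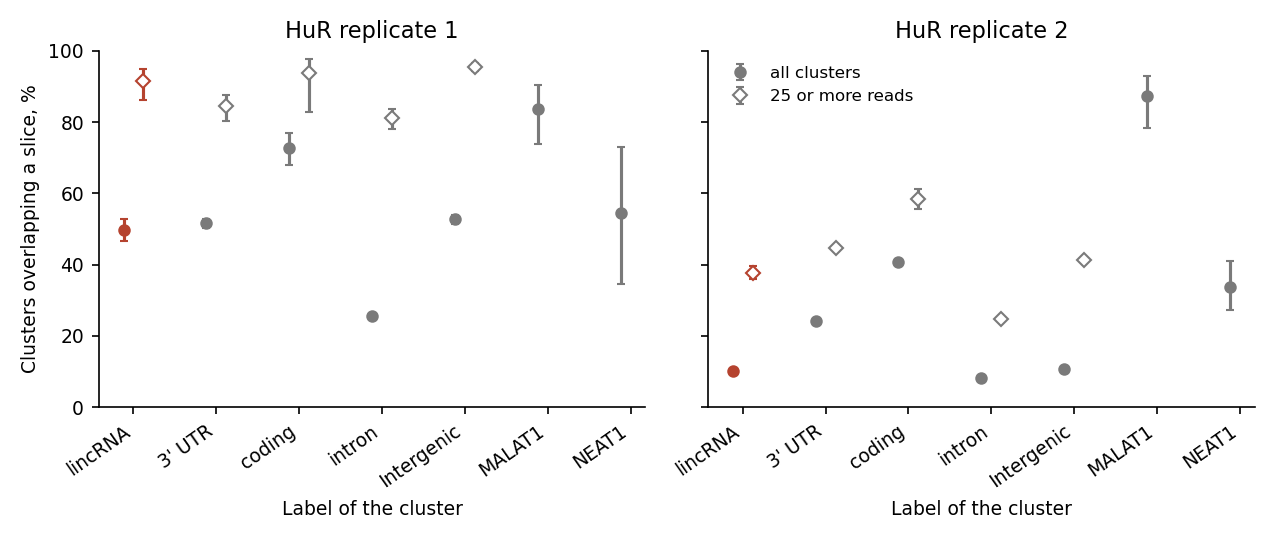
Share of HuR clusters that overlapped a background group on the same strand, in percent, by label and replicate, for all clusters (filled) and for those with 25 or more reads (open, not drawn for MALAT1 and NEAT1). Bars are 95% Wilson intervals. lincRNA (red) lies at 49.8% and 10.2% for all clusters and at 91.6% and 37.7% for clusters with 25 or more reads.

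The genes differed in how much of their HuR signal was free of background. In XIST, 22.4% and 29.9% of clusters of HuR replicates 1 and 2 had no background group, holding 11.3% and 8.46% of XIST reads. In JPX this was 71.3% and 80.1% of clusters, in FTX 58.7% and 77.9%, in DLEU2 70.0% and 87.1% and in MIR924HG 82.6% and 93.0%. All 5 OIP5-AS1 clusters of HuR replicate 1 and 84.1% of the 88 in HuR replicate 2 had none. Of these 6 genes, XIST was the one with the most HuR reads and the one whose clusters most often had background.

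Between the replicates, 929 of 1000 lincRNA clusters of HuR replicate 1 (92.9%) overlapped a group of HuR replicate 2, and 27.5% of those of HuR replicate 2 overlapped a group of HuR replicate 1. The corresponding shares were 97.6% and 49.2% for 3' UTR clusters and 91.9% and 32.7% for introns. In the other direction, slice clusters with 25 or more reads recurred in most libraries. Of these, 94.0%, 91.5% and 96.0% of G20, G35 and G45 had a group in both other slices, and 97.6%, 93.9% and 100% had one in HuR. For clusters of any label with as many reads, 81.5%, 93.4% and 96.0% had a group in both other slices, so lincRNA clusters stood above them in G20 alone.

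Total held few reads at many of these clusters. A Total group overlapped 42.3% of lincRNA clusters in G20, 23.8% in G35, 22.6% in G45, 75.4% in HuR replicate 1 and 23.4% in HuR replicate 2. Over clusters of any label the shares were 52.6%, 25.1% and 24.2% in the slices and 65.3% and 26.4% in HuR, so those of lincRNA clusters were lower in every library but HuR replicate 1. For 3' UTR clusters of the slices they were 85.8%, 68.8% and 72.0%, and for intron clusters 34.9%, 23.5% and 24.6%. The 1351 Total clusters made up 0.673% of Total clusters and held 64137 reads. Of them, 1285 overlapped a lincRNA cluster of HuR replicate 2 and 411 one of HuR replicate 1, whereas 128, 117 and 101 overlapped one of G20, G35 and G45.

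T-to-C conversion was read as conversion events per 100 reads. A read can carry more than 1 event, so the value can exceed 100. lincRNA clusters had 82.1 in G20, 95.3 in G35, 83.8 in G45, 71.7 in HuR replicate 1 and 102 in HuR replicate 2, and the clusters of Total at these sites had 27.0. HuR, at 87.1 ± 21.7 (SD, n = 2), and the slices, at 87.1 ± 7.15 (n = 3), overlapped (exact permutation test, p = 1). These values pool reads, so sites with many reads weigh most. Pooled alike, intron clusters had 82.4, 89.2 and 83.2 in G20, G35 and G45, and 73.3 and 104 in HuR replicates 1 and 2. All Total clusters had 50.9, while those used here were found by overlap, mostly with HuR replicate 2. As a median over lincRNA clusters the value was 100 in each slice and in HuR replicate 2, and 97.0 in HuR replicate 1. In HuR replicate 1, clusters with background had 69.6 pooled and those without had 93.1, whereas in HuR replicate 2 they had 100.5 and 104. The medians over clusters were closer, 95 and 100 in HuR replicate 1 and 100 for both sets in HuR replicate 2. The ADAMTS9-AS2 site, with 8146 reads in HuR replicate 1, had 41.0 there.

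At the 58 sites with a cluster in all 5 libraries, conversion was compared library by library. Each site is a stretch of merged clusters, so clusters of different libraries in a site need not share bases. Outside XIST, 13 of the 45 sites stayed within 10 events per 100 reads of either 100 or 200 in each of the 5 libraries. The site in RARB (chr3:25103035-25103057, plus strand), a gene that GENCODE calls protein-coding, had 199.3, 199.5 and 199.2 in G20, G35 and G45 and 199.7 and 199.1 in HuR replicates 1 and 2. The site in ENSG00000224400 (chr2:16607645-16607665, plus strand) had 99.7, 100 and 99.5 in the slices and 99.7 and 99.2 in HuR. Total, made without immunoprecipitation, had 38 events in 40 reads at that site and no read at the RARB site. Whether events at sites with such steady values mark crosslinks was not tested. In LINC01320 and ENSG00000239498 the clusters of the 5 immunoprecipitated libraries had at most 7.51 and 0.758 events per 100 reads. Total had 10 reads at each, with 6 events in LINC01320 and 0 in ENSG00000239498. At 27 sites every library had at least 25 reads, and 10 of these varied by under 10 events per 100 reads between libraries, while the median range over the 27 was 26.6. Total had no read at 22 of the 45 sites, and a median of 1 read.

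At the 13 sites in XIST the median was 33.3, 92.3 and 44.7 events per 100 reads in G20, G35 and G45. In HuR replicates 1 and 2 it was 89.7 and 100. Most of these merged sites were longer than those outside XIST, as at chrX:73071831-73072251. Libraries can thus differ here in the bases they cover, which was not tested. G20 lay below both HuR replicates at all 13 sites, G45 at 10 and G35 at 4. The sites ranged from 7.69 to 111 in G45 and from 25.6 to 200 in G35, and reached down to 62.5 and 58.6 in HuR replicates 1 and 2. Many of these values rest on few reads, since 1 of the 13 sites had at least 25 reads in every library. The 200 in G35 came from 5 reads, the 7.69 and 111 in G45 from 13 and 9, and the 62.5 in HuR replicate 1 from 8. At the XIST cluster with the most reads in HuR replicate 2 (chrX:73070002-73070232, minus strand, exon), the reads in groups were 11 in G20, 48 in G35, 95 in G45, 397 in HuR replicate 1 and 4907 in HuR replicate 2. The events per 100 reads were 36.4, 22.9, 46.3, 97.7 and 102. Over all XIST clusters they were 27.3 in G20, 88.3 in G35, 58.2 in G45, 92.6 in HuR replicate 1 and 102 in HuR replicate 2. Total had reads at each of the 13 sites, with a median of 320.

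**Figure D4:**
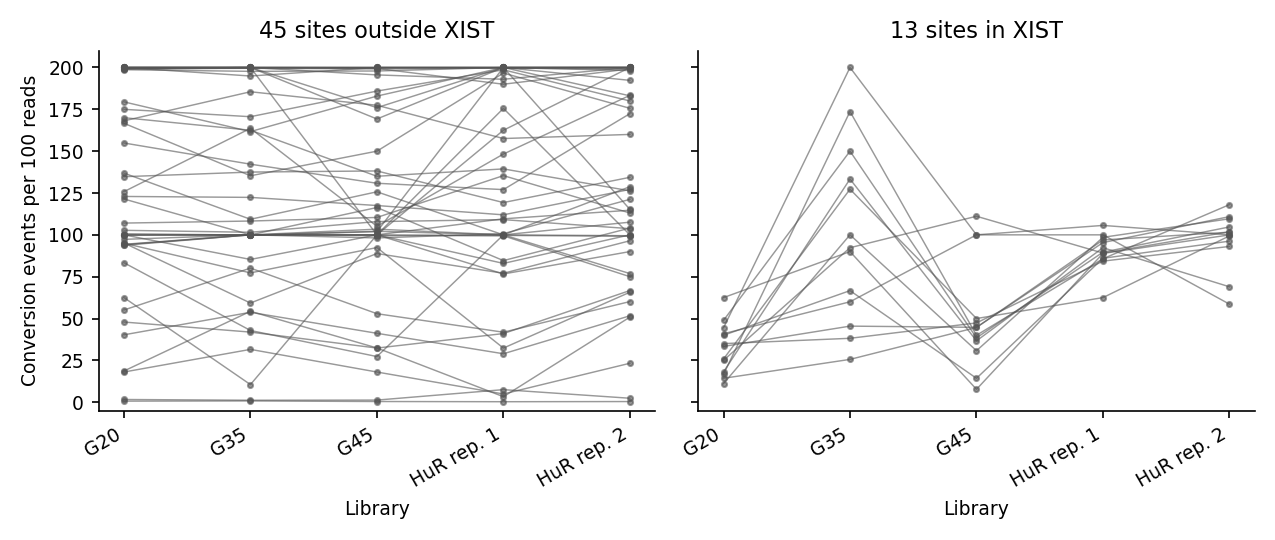
Conversion events per 100 reads in each library at the 58 sites with a lincRNA cluster in all 5 libraries, 1 line per site, for 45 sites outside XIST (left) and 13 in XIST (right). Several lines on the left stay near 200, 100 or 0 throughout. The XIST sites have a median of 33.3 in G20 and are scattered from 25.6 to 200 in G35. Their medians are 89.7 and 100 in HuR replicates 1 and 2. Of the 13 XIST sites, 1 has at least 25 reads in every library. Sites are merged clusters, mostly longer in XIST, so libraries can differ in the bases they cover.

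lincRNA clusters of HuR were richer in T and poorer in G than those of the slices. The mean share of T was 28.7%, 31.7% and 31.9% in G20, G35 and G45, and 39.1% and 40.9% in HuR replicates 1 and 2. In the clusters of Total used here it was 35.2%, and over all Total clusters 30.2%. Those used here were found by overlap, mostly with lincRNA clusters of HuR replicate 2. The mean share of G was 29.8%, 26.9% and 26.6% in the slices against 14.2% and 14.4% in HuR. For both bases the HuR libraries lay outside the range of the slices, by 9.21 points for T and -13.4 for G between the means (HuR minus slices, two-sided exact permutation test, p = 0.2 for each, the smallest that 2 against 3 libraries allow). A cluster needs a T that converts, which raises T in every library. Among clusters of 18 to 22 nt, T was 29.8%, 32.0% and 31.7% in the slices and 39.4% and 40.5% in HuR.

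Short motifs were searched on the transcribed strand alone. TTTTT was present in 3.22% of G20, 7.30% of G35, 6.87% of G45, 13.3% of HuR replicate 1 and 24.5% of HuR replicate 2 lincRNA clusters. All 3 slices lay below both HuR replicates. GGGG was present in 12.7%, 10.05% and 7.23% in the slices against 6.30% and 6.64% in HuR, and the 95% Wilson interval of G45 (5.98 to 8.73) covers both HuR values. Among clusters with at least 2 conversion locations, GGGG was in 14.0%, 5.53% and 5.49% of those of G20, G35 and G45, against 6.30% and 7.27% in HuR, so G35 and G45 were then not above HuR. Beside 3' UTR clusters, TTTTT was rarer in lincRNA clusters of the slices, where 3' UTRs had 8.91%, 24.4% and 39.8%. It was also rarer in HuR replicate 1, where 3' UTRs had 24.7%, but not in HuR replicate 2, where they had 24.6%. The 3' UTR clusters of the slices were longer, with medians of 25 to 26 nt. Among clusters of 18 to 22 nt, TTTTT was in 6.97%, 11.6% and 19.5% of slice 3' UTR clusters, against 3.07%, 4.52% and 3.94% of lincRNA clusters. A motif match is a description of the sequence and not a binding site.

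In the slices, base content depended on the label. In G45, T made up 43.1% of bases in 3' UTR clusters and 36.4% in intron clusters, compared to 31.9% in lincRNA clusters. In G20 the order was turned, with 25.1% in 3' UTR, 28.4% in intron and 28.7% in lincRNA clusters. In HuR replicates 1 and 2 the 3 labels lay close to each other. The rise in T from G20 to G45 that 3' UTR clusters had was thus smaller in lincRNA clusters.

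**Figure D5:**
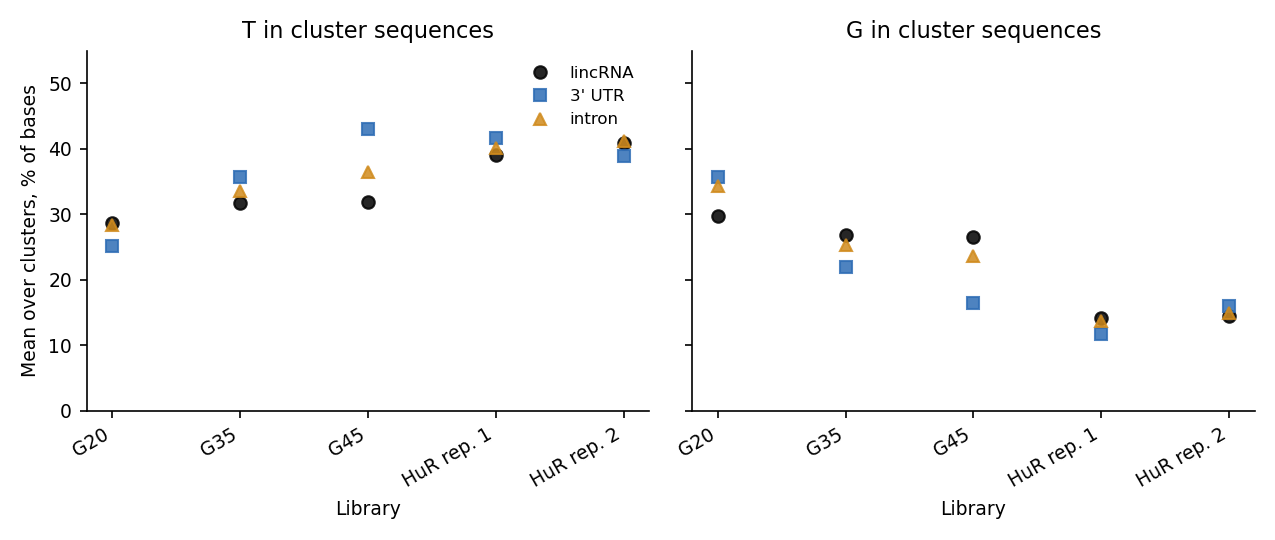
Mean share of T (left) and G (right) in cluster sequences by library, in percent of bases, for clusters labelled lincRNA, 3' UTR and intron. lincRNA clusters go from 28.7% to 31.9% T in the slices to 39.1% and 40.9% in HuR, and from 29.8% to 26.6% G to 14.2% and 14.4%.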

How the data were processed

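The authors mapped single reads with Bowtie to hg19 and grouped uniquely mapping reads with PARalyzer. They deposited, per library, whole-number counts of reads, conversion locations and conversion events per group and per cluster, not normalized. Removal of PCR duplicates is not given in the sources used here. Libraries held 6187300 to 38644636 reads in groups.

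lincRNA clusters were rows so labelled (spaces stripped). Genes came from GENCODE v44lift37 by cluster midpoint and strand, with exons before introns and lncRNA before other genes. MALAT1 and NEAT1 were taken out by overlap. An overlap is 1 shared bp on the same strand. Intervals are 95% Wilson intervals. Reads per gene were tested with edgeR 4.0.16 in R 4.3.3 (TMM, filterByExpr, quasi-likelihood), with Benjamini-Hochberg adjustment at 0.05 over all genes, HuR against the 3 slices, without Total. The SE of a fold change was derived from the test statistic. Python 3.11.15 was used with pandas 2.3.3 and scipy 1.17.1. Overlap and edgeR steps were tested on simulated data.

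Named genes were the 3 with the most lincRNA reads per library (XIST apart), the 5 largest fold changes in each direction among called genes, and 4 lists. XIST, FTX and RARB and further sites were added after their values were seen. Members and lists were chosen with earlier results of these data known. Alternatives changed scaling, test, filters, overlap rules, weighting and the libraries used. The site with the most reads in the slices is given by its gene and length, and sequences of some sites are not shown.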

Additional observations from a re-analysis of the deposited data

How the results depend on the processing

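The edgeR count of lincRNA genes depended most on the processing. Beside 62 calls (57 lower, 5 higher in HuR), DESeq2 size factors in edgeR gave 24, all lower, and the DESeq2 Wald test gave 203 (173 lower, 30 higher). Without a filter there were 64 (47 lower, 17 higher), of which 45 were among the 62. With reads of clusters only there was no edgeR call among 727 lincRNA genes, although 280 had an unadjusted p under 0.05, and the DESeq2 Wald test was not run on those reads. The calls ranged from 0 to 56 when 1 library was left out. None was left without G20 (429 at an unadjusted p under 0.05), 17 without G35, 34 without G45, 56 without HuR replicate 1 (22 of them higher in HuR) and 7, all higher, without HuR replicate 2. A group of 1 HuR library was assumed to vary like the slices. The cause was not tested. The median log2 fold change of all genes was -0.13 with DESeq2 size factors and -0.02 with TMM. The next 4 genes were chosen by their reads in HuR replicate 2 or after their values were seen, so their calls are not independent of that choice. JPX, FTX, DLEU2 and MIR924HG passed with the DESeq2 Wald test and in edgeR without HuR replicate 1, and JPX also without a filter (edgeR adjusted p 0.0417). Of the fold changes of named genes, 3 changed sign, LINC00343 with reads of clusters only (-2.20), and 2 without HuR replicate 1. Over the libraries left out, that of KIZ-AS1 ranged from -0.79 to 5.21 and that of PRKG1-AS1 from -0.087 to 5.26, lowest without HuR replicate 1 and highest without HuR replicate 2.

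The lincRNA share of cluster reads in HuR was 2.22% with the 10 top clusters left out, against 2.002%. The mean T content in HuR was 37.1% weighted by reads, against 39.99%. Groups of Total at lincRNA clusters were 0.235% of groups, against 0.673% of clusters. The other alternatives for HuR shares, overlaps, conversion and T content moved values by less than the spread between the replicates, which is wide for background overlap (30.02% ± 28.0, n = 2). With background clusters in place of groups, overlap fell to 20.2% and 3.18% in HuR replicates 1 and 2. Leaving out 1 HuR replicate gave 1.80% to 2.54% for the share of clusters, 1.85% to 2.16% for the share of reads, 10.2% to 49.8% for background overlap, 71.7 to 102 for conversion events per 100 reads and 39.1% to 40.9% for T content. No paired analysis was possible because the groups compared share no pairs of replicate numbers.

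Limits follow from depth and design. A group of 3 reads is 0.485 RPM in G35 and 0.0776 RPM in G20, and a site without reads in a slice was not detectable at that depth. HuR replicates differ in depth and in the conversion locations their tables require.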
